A study of Mus musculus with 22 samples.

Results

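The left and the right ventricle were compared within mouse hearts that carry a conditional knockout of Prdm16 (cKO). The comparison rests on 8 of the 22 bulk RNA sequencing libraries of the series, chosen by their sample titles: 4 left ventricles (LV) and 4 right ventricles (RV), all cKO, all from strain C57BL/6 and all taken at embryonic day E13.5. The controls used for reference are 4 LV and 4 RV libraries from littermates of the same strain and day, titled WT and labelled Mock. The promoter that drives Cre, the exons that are deleted, and whether an LV and an RV came from the same heart are not given in the sources used here. No label says that the 4 libraries of a group came from separate hearts, so the p-values measure the spread between these libraries, which may be technical.

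The Prdm16 protein binds DNA through zinc fingers and carries a PR domain, and the title of the series describes it as enriched in compact myocardium, the dense outer layer of the ventricular wall. As background, the LV grows mainly from progenitors of the first heart field, and the RV and outflow tract from those of the second heart field. In the embryo the LV is marked by factors such as Hand1 and Tbx5. The inner, trabecular layer of the wall expresses Nppa and Gja5 and later contributes to the conduction system, whereas the compact layer expresses Hey2 and Mycn and proliferates faster.

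The 8 cKO libraries held 16908129 to 21348488 reads assigned to transcripts. RNA integrity is labelled only as a range, 6.1 to 10, the same for every library. Whether RNA quality differed between the chambers was thus not tested. Values for a gene are given below as CPM, the reads of a gene relative to those of its library, scaled between libraries by TMM factors, and set 1 gene against itself. Levels of different genes are set side by side only as TPM, which is also scaled to transcript length. Differences are log2, LV minus RV, so that a positive value is higher on the left, and each adjusted p comes from edgeR's quasi-likelihood F test over all genes tested. A gene was called when that adjusted p was under 0.05.

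The ventricle label matched some of its defining markers. The ventricular light chain Myl2 stood at 18400 to 24800 TPM in LV cKO and 26300 to 30600 in RV cKO, and at 9730 to 12500 in the whole hearts. The other 3 ventricular markers, Myl3, Myh7 and Irx4, overlapped the whole hearts in LV cKO. Irx4, for example, stood at 24.8 to 29.4 TPM there and at 21.9 to 30.4 TPM in the whole hearts. Sln, an atrial gene, stood at no more than 1.57 TPM in a cKO ventricle and at 2.24 to 5.76 TPM in the whole hearts. The atrial marker Kcna5 also lay below the whole hearts, whereas Nr2f1 overlapped them. Isl1, a gene of second heart field progenitors, stood at no more than 0.16 TPM in a cKO ventricle. Mybphl, which is atrial in the textbook heart, stood at 47.9 to 59.9 TPM in the cKO ventricles and at 6.01 to 7.65 TPM in the control ventricles, so 1 atrial marker goes against the label in the cKO. Cck, listed as a right ventricular marker, was near 0 in every library and checks nothing. Irx2, the other marker listed for the right, overlapped, with 10.2 to 18.3 TPM in LV cKO and 10.6 to 31 TPM in RV cKO. Neither thus set the right ventricle apart, and the left markers Hand1 and Cited1 are given below. RV control 2 stood apart from the other control ventricles, with Isl1 at 2.86 TPM, Meox1 at 25.8 TPM and Postn at 266 TPM, where the other 3 RV controls reached 0.13, 1.89 and 47.6 TPM. Many results that use the controls are therefore also given without it, and the rest include it.

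Prdm16 itself, on chromosome 4 (GRCm38, 154316125 to 154636873, minus strand), was checked first. Its level was 23.4, 21.6, 22.0 and 22.2 CPM in LV cKO 1 to 4, and 25.8, 23.1, 22.8 and 22.2 CPM in RV cKO 1 to 4. The 2 chambers differed by -0.08 on the log2 scale (SE 0.056, adjusted p = 0.284). In the controls Prdm16 stood at 45.4, 53.9, 47.6 and 56.2 CPM on the left and 38.7, 37.5, 38 and 44.3 CPM on the right, all above the cKO libraries, and was higher on the left by 0.36 (adjusted p = 0.0131). The left-right difference in Prdm16 thus differed between genotypes by -0.44 (adjusted p = 0.0404). Without RV control 2 that p was 0.0503. These reads count the whole gene, and transcripts with and without a deleted part are not separated.

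In the cKO 5714 of 15694 genes tested differed between the ventricles, which is 36.4%. Of these, 2562 were higher on the left (16.3%) and 3152 higher on the right (20.1%). Most differences were small: 358 genes passed 1 on the log2 scale, 230 of them higher on the left and 128 higher on the right, and the median over all genes was 0.01. Chamber was the main axis of the 8 libraries. The first principal component, 40.7% of the variance, placed LV cKO between -33.3 and -19.1 and RV cKO between 20.3 and 30.7. Within a chamber the spread was low, with a biological coefficient of variation of 0.0772. The CPM of left and right libraries did not overlap for 5569 genes (35.5%), 2528 higher on the left and 3041 higher on the right. A lack of overlap in a single gene, as given below, is thus common here. With library totals in place of TMM factors the split of calls turned to 4266 higher on the left and 2058 higher on the right, and the median of all genes was 0.0915 on that scale. In TPM the median over genes was 0.141, and 558 of 5712 called genes had a TPM ratio of the other sign, none of them with a difference past 1. The right-sided calls lay among abundant genes: of the 100 most abundant genes 58 were higher on the right and 12 on the left, and of the fifth of genes with the lowest level 3.82% were higher on the right and 10% on the left.

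**Figure D1:**
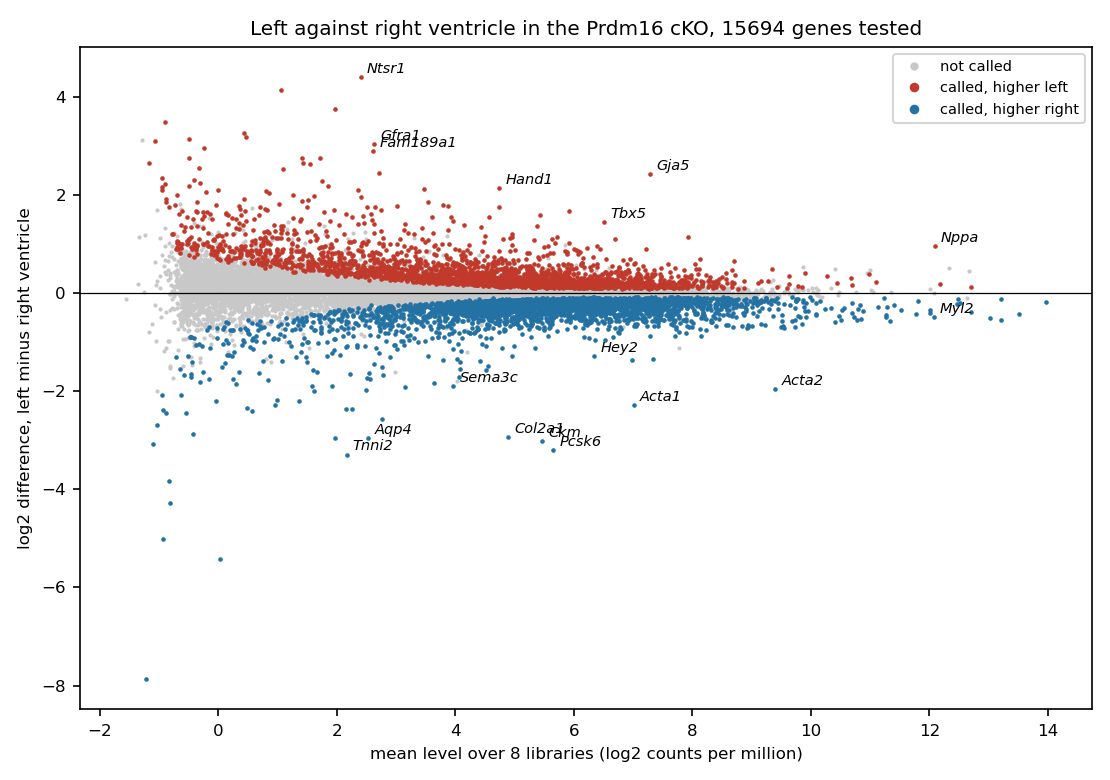
Log2 difference between left and right ventricle in the cKO (vertical axis) against mean level in log2 CPM (horizontal axis), 1 point a gene, 15694 genes, red and blue for genes called higher on the left and on the right. Ntsr1, Gja5 and Hand1 stand at the top and Pcsk6, Ckm and Acta1 at the bottom, and most red and blue points lie within 1 of zero.

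Of the genes that mark the LV, Hand1, Tbx5, Gja5, Nppa, Hcn4 and Cited1 were higher on the left in the cKO. Of the 10 genes in the left ventricle and first heart field list, all tested, 6 were higher on the left and 2 higher on the right, where 16.3% and 20.1% of all genes were called, and their median difference was 0.64 against 0.01 over all genes. These shares of all genes are the background for every list count in the cKO below. Hand1, a basic helix-loop-helix factor of the left ventricle (chromosome 11, 57828705 to 57832818), stood at 58.4, 57.1, 54.7 and 54.5 CPM in LV cKO and at 13.9, 9.62, 14.4 and 12.9 CPM in RV cKO. Every left library was thus over 3 times every right one, a difference of 2.14 (SE 0.093, adjusted p = 1.41e-07). Tbx5, a T-box factor of the first heart field and the atria (chromosome 5, 119832668 to 119885219), stood at 147, 150, 157 and 152 CPM on the left. On the right it stood at 68.7, 56.9, 46.3 and 49.2 CPM, and the groups did not overlap (1.45, SE 0.096, adjusted p = 1.29e-06).

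Gja5, which encodes the gap junction protein connexin 40 (chromosome 3, 96904693 to 97077416), had the largest difference of the list. Its level was 382, 371, 355 and 361 CPM in LV cKO. In RV cKO it was 108, 58.2, 55.2 and 52.7 CPM, with RV cKO 1 at nearly 2 times the other 3 and still far below every left library (2.41, SE 0.19, adjusted p = 4.43e-06). Nppa, the gene of atrial natriuretic peptide, stood at 5923, 6606, 6038 and 5905 CPM on the left and 3588, 2343, 3547 and 3132 CPM on the right (0.95, SE 0.11, adjusted p = 7.08e-05). Hcn4, the pacemaker channel, was higher on the left by 1.19 (SE 0.094, adjusted p = 4.2e-06), and Cited1, a transcriptional coactivator, by 0.32 (SE 0.057, adjusted p = 0.00123).

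Members of the list also stood the other way. Pln, the inhibitor of the sarcoplasmic calcium pump, was higher on the right (a difference of -0.70, SE 0.052, adjusted p = 2.76e-06), and Smarcd3, a chromatin remodelling subunit, differed by -0.34 (SE 0.040, adjusted p = 7.37e-05). Nppb, the gene of brain natriuretic peptide, did not differ beyond its spread: 122, 171, 201 and 150 CPM on the left against 136, 124, 202 and 168 CPM on the right (0.03, SE 0.16, adjusted p = 0.917). Snai2 did not pass the test either (0.28, adjusted p = 0.0924).

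**Figure D2:**
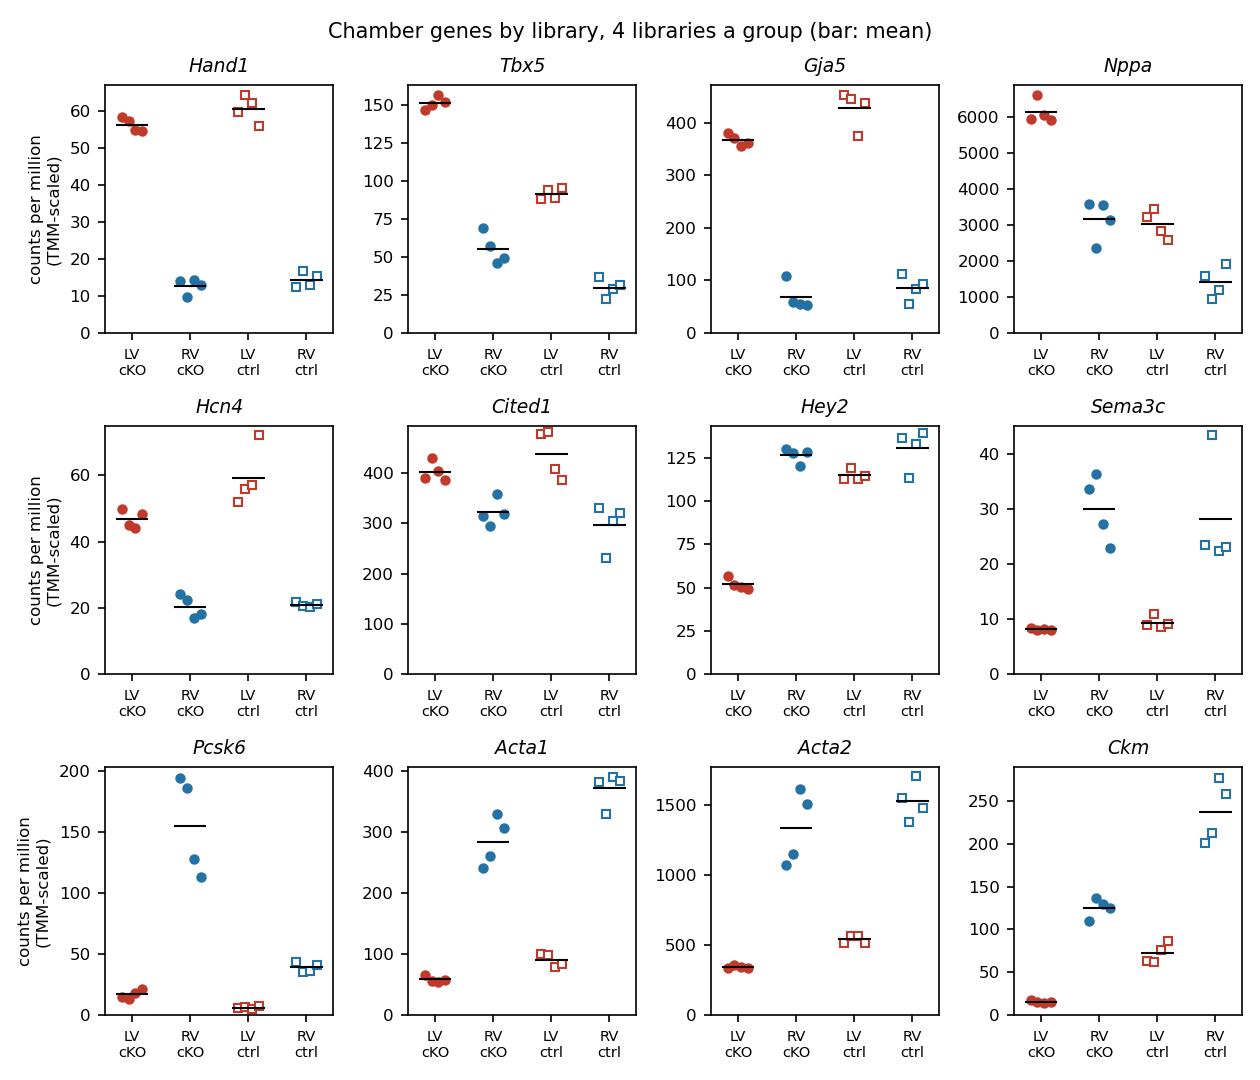
CPM (TMM-scaled, vertical axes from 0) of 12 genes in each library, 4 libraries a group, filled circles for cKO and open squares for controls, red for left and blue for right, with a bar at the mean. In the cKO the left and right libraries do not overlap for any of these 12 genes, for example 54.5 to 58.4 against 9.62 to 14.4 for Hand1. The same holds for 35.5% of all 15694 genes tested.

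In the controls 2527 of 15897 genes were called (15.9%), 7.06% higher on the left and 8.83% higher on the right. The same 10 genes gave 6 and 2 in the controls (7 and 2 without RV control 2). Hand1 differed by 2.07 there, Tbx5 by 1.62, Gja5 by 2.32, Nppa by 1.10, Hcn4 by 1.51 and Cited1 by 0.57. None of the 10 was called in the test of the difference between genotypes, in which 1.43% of genes were called (0.462% more positive and 0.973% more negative), and the adjusted p of these 6 ranged from 0.365 (Hcn4) to 0.932 (Gja5). For Gja5 the estimated difference between genotypes was 0.10, and for Hand1 0.07, whereas for Hcn4 it was -0.31 and for Cited1 -0.24. In simulated data this test called 70% and 45% of genes changed by 1 and 0.5 (log2), so a gene not called may still differ between genotypes. The closest to the threshold was Nppb, with a control difference of -0.95 (adjusted p = 0.00358) and a difference between genotypes of 0.99 (adjusted p = 0.0671).

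The promoters of Nppa and Gja5 are shown because both are well-known targets of Tbx5 among the left-sided genes. Acta1 and Ckm are shown as genes higher on the right. Each line is the 250 bases before the start site, 5′ to 3′, from RefSeq on GRCm38.p6, with matches in capitals to the T-box site (GGTGTNA, either strand) or to the CArG box, the site of serum response factor. The windows lie at chr4:148000472-148000721 (plus strand), chr3:97032152-97032401 (plus), chr8:123894776-123895025 (minus) and chr7:19410844-19411093 (plus). Of 32851 promoter windows of this length, 8.61% held a match to the T-box site and 1.47% a match to the CArG box.
Nppa: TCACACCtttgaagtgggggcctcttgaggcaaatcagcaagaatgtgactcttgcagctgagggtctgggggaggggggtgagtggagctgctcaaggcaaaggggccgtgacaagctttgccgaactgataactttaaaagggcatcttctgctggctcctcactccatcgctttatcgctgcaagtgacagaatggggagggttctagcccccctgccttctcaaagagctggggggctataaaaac
Gja5: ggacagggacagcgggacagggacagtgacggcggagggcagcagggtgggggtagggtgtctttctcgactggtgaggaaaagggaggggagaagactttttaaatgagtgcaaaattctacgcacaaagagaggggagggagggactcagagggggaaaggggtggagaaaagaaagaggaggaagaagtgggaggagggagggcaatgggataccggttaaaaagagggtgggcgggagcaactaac
Acta1: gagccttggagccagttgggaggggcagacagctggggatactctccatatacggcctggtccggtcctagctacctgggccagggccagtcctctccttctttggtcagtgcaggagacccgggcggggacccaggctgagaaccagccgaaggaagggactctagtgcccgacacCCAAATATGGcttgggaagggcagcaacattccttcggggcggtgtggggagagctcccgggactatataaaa
Ckm: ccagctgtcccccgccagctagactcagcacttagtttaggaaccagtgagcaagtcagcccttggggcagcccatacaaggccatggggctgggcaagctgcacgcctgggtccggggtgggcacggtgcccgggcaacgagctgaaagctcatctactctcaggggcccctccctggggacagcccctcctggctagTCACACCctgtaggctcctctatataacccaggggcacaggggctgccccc
The Nppa match begins 250 bases before the start and reads on the other strand, as does the Ckm match at 51 bases. The Acta1 match is a CArG box 73 bases before the start. No match was found in the Gja5 window, which says only that these letters are not in it. A match is a description of the letters.

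The right ventricle, second heart field and outflow tract list was less uniform. Of its 22 genes 15 had enough reads to be tested, 2 were higher on the right and 4 higher on the left, and their median was 0.19. Of all genes 20.1% and 16.3% were called on these sides. The other 7, among them Isl1, Fgf8, Tbx1, Six2, Cck and Tdgf1, held 1 to 29 reads each over the 8 libraries. Sema3c, a secreted guidance cue of the outflow tract (chromosome 5, 17574281 to 17730268), stood at 8.27, 7.99, 8.25 and 7.94 CPM in LV cKO and at 33.6, 36.3, 27.3 and 22.8 CPM in RV cKO. Every right library was thus more than 2 times every left one (-1.89, SE 0.13, adjusted p = 1.76e-06).

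On the left side of the same list stood Tbx2, a T-box repressor of chamber differentiation, with 17.4, 15, 10.8 and 15.4 CPM on the left and 3.99, 6.83, 4.24 and 7.16 CPM on the right (1.40, SE 0.20, adjusted p = 0.000295). The ligands Bmp4 (0.48, adjusted p = 0.00442) and Wnt11 (0.31, adjusted p = 0.00552) and the semaphorin receptor Nrp2 (0.26, adjusted p = 0.00153) were also higher on the left. Bmp4 was not called when all 16 ventricle libraries were fitted together (adjusted p = 0.187), but was in that fit without RV control 2 (adjusted p = 0.0136). Hand2, the partner of Hand1 in the right ventricle, differed by -0.16 (adjusted p = 0.0708). Without RV cKO 1 it was called, at -0.22 (adjusted p = 0.0019).

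Several regulators of this list varied more within a chamber than between them. Tbx3, a T-box factor of the conduction system, stood at 11.7, 8.33, 5.92 and 10.8 CPM on the left and at 6.34, 7.63, 0.824 and 0.836 CPM on the right, so that RV cKO 1 and 2 lay among the left libraries (1.22, SE 0.54, adjusted p = 0.103). It was called without RV cKO 2 (1.73, adjusted p = 0.0431). The homeobox genes Irx1 and Irx2 were highest in RV cKO 1, with 20.5 and 32.6 CPM, and overlapped between chambers (0.19, adjusted p = 0.555, and -0.27, adjusted p = 0.478). Without RV cKO 1, Irx1 was higher on the left by 0.49 (adjusted p = 0.0415). Mef2c, Bambi, Gata6 and Rspo3 had adjusted p of 0.265 to 0.735.

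On the left the largest differences, among called protein-coding genes whose libraries did not overlap and whose mean reached 2 log2 CPM, were those of Ntsr1, Gfra1, Fam189a1, Gtsf1, Gja5 and Hand1. Ntsr1, the receptor of the peptide neurotensin, stood at 26.9, 24.2, 22.3 and 24.0 CPM in LV cKO and at 1.87, 0.797, 0.648 and 1.15 CPM in RV cKO (4.40, SE 0.19, adjusted p = 1.47e-07). Gfra1, a receptor of GDNF, stood at 18, 15.3, 20.3 and 19.2 CPM against 3.31, 2.16, 0.883 and 2.35 CPM (3.03, SE 0.23, adjusted p = 3.62e-06). Both thus stood at low levels in every right library, and every left library was over 4 times every right one. In the controls neither was called, with 1.75 for Ntsr1 (adjusted p = 0.25) and 1.56 for Gfra1 (adjusted p = 0.0591), and the difference between genotypes was not called either (adjusted p = 0.247 and 0.286). Without RV control 2 both were called in the controls, with 4.89 for Ntsr1 (adjusted p = 0.00294) and 2.54 for Gfra1 (adjusted p = 5.03e-05), and the difference between genotypes was -0.49 for Ntsr1 (adjusted p = 0.922) and not called for Gfra1 (adjusted p = 0.684).

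Fam189a1 (2.89), Gtsf1 (2.43) and Lmntd1 (1.69) were called in the controls as well, at 2.74, 2.49 and 1.96. Cp, the copper-binding ferroxidase ceruloplasmin, stood at 10.4, 11.1, 8.93 and 11.3 CPM against 2.88, 1.76, 2.35 and 2.66 CPM (2.09, SE 0.14, adjusted p = 1.64e-06). Its control difference was 0.30 (adjusted p = 0.371). The secreted activin antagonist Fst (1.95), the arginine deiminase Padi2 (1.79), Cttnbp2 (1.75), the potassium channel subunit Kcnj8 (1.74) and the inhibitor of DNA binding Id4 (1.61) were also among the largest left-sided differences, with Prss35, Art1, Calr4, Igdcc3, Igfbpl1 and Slco5a1 between 1.56 and 1.77.

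On the right the largest differences, by the same criteria, were those of Tnni2, Pcsk6, Ckm, Aqp4 and Col2a1. Tnni2, fast skeletal troponin I, stood at 2.47, 0.788, 1.25 and 1.21 CPM in LV cKO and at 14.64, 13.54, 13.42 and 14.26 CPM in RV cKO (-3.29, SE 0.22, adjusted p = 1.27e-06). Ckm, muscle creatine kinase (chromosome 7, 19404776 to 19422841), stood at 17.0, 15.2, 14.6 and 15.1 CPM on the left. On the right Ckm stood at 109.6, 137, 130 and 125 CPM, so that every right library was over 6 times every left one (-3.02, SE 0.076, adjusted p = 4.76e-09).

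The skeletal actin gene Acta1 (chromosome 8, 123891769 to 123894751) and the smooth muscle actin gene Acta2 (chromosome 19, 34241090 to 34255590) were both higher on the right. Acta1 stood at 65.1, 56.5, 54.8 and 57.4 CPM in LV cKO and at 241, 261, 330 and 306 CPM in RV cKO (-2.29, SE 0.098, adjusted p = 1.36e-07). Acta2 stood at 339, 356, 345 and 338 CPM on the left, and at 1069, 1148, 1618 and 1507 CPM on the right (-1.96, SE 0.12, adjusted p = 8.04e-07). RV cKO 3 and 4 were the higher right libraries for both actins. Actc1, the main cardiac actin, differed by -0.54 (adjusted p = 5.1e-06), and per length stayed the most abundant of these actins in both chambers, with a mean of 8096 TPM on the left against 304 TPM for Acta2 and 68.1 TPM for Acta1.

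Pcsk6, a proprotein convertase that processes Nodal and other ligands of the TGF-beta family (chromosome 7, 65861734 to 66050386), had a difference of -3.21 (SE 0.20, adjusted p = 9.43e-07). Its level was 14.9, 13.1, 18 and 21.4 CPM in LV cKO and 195, 186, 128 and 114 CPM in RV cKO, where RV cKO 1 and 2 were the higher libraries. Col2a1, the fibrillar collagen of cartilage and valve primordia, stood at 11.1, 8.78, 10.5 and 12.7 CPM on the left and at 82.8, 96.9, 73.3 and 76.1 CPM on the right (-2.93, SE 0.11, adjusted p = 5.9e-08). Both differed to a like extent in the controls, by -2.68 and -2.95. The water channel Aqp4 (-2.95), the glutamate receptor subunit Gria2 (-2.37), Myo16 (-2.37), the thyroid hormone deiodinase Dio2 (-1.98), Dok7 (-1.91), the relaxin receptor Rxfp1 (-1.83), Ky (-1.73), Acss1 (-1.71), Cend1 (-1.67), Sel1l3 (-1.66) and Sntb1 (-1.56) were also among the largest right-sided differences.

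Genes of the compact wall were split between the chambers, and its leading regulators were higher on the right. Of the 10 compact myocardium genes 3 were called higher on the left and 4 higher on the right, with a median of -0.08. Hey2, a transcriptional repressor of the compact layer (chromosome 10, 30832359 to 30842801), stood at 56.9, 51.6, 50.4 and 49.1 CPM in LV cKO. In RV cKO it stood at 130, 128, 120.4 and 129 CPM, over 2 times every left library (-1.29, SE 0.047, adjusted p = 4.7e-08). Mycn, a growth-promoting MYC family factor of the compact layer, stood at 25.8, 25.6, 26.7 and 24.4 CPM against 41.6, 39.2, 36.4 and 39.3 CPM (-0.62, SE 0.048, adjusted p = 3.91e-06).

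In the controls neither gene was called, with -0.18 for Hey2 (adjusted p = 0.0729) and 0.04 for Mycn (adjusted p = 0.735). Without RV control 2 Hey2 was called higher on the right there as well (-0.24, adjusted p = 0.000746). The difference between genotypes was called for both, at -1.10 for Hey2 (adjusted p = 5.04e-06) and -0.65 for Mycn (adjusted p = 0.000654). Ccnd2, cyclin D2, was called higher on the right in the cKO (-0.25, adjusted p = 0.00225), with a difference between genotypes of -0.31 (adjusted p = 0.0389). When counts were scaled to transcript length, Ccnd2 was no longer called and its estimate was near 0 (0.006, adjusted p = 0.983). Tbx20 (0.36, adjusted p = 3.05e-05) and Fgfr2 (0.57, adjusted p = 0.00143), also on the compact list, were higher on the left. In the fit of all 16 ventricle libraries their adjusted p were 0.0507 and 0.324, and without RV control 2 they were 1.1e-05 and 0.00137.

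Of 13 trabecular genes tested 6 were higher on the left and 2 higher on the right, with a median of 0.18. Beside Gja5, Nppa and Cited1, these were Cpne5, a calcium-dependent phospholipid binding protein (1.14, SE 0.16, adjusted p = 0.00029), the guidance cue Sema3a (0.29, adjusted p = 0.00118) and Slit2 (0.18). Kcne1, a potassium channel subunit, stood at 9.59, 10.1, 8.14 and 13.4 CPM on the left and 25.1, 27, 20.3 and 32.9 CPM on the right (-1.36, SE 0.16, adjusted p = 8.53e-05). Smpx, a small muscle protein, was also higher on the right (-0.32). Bmp10, Irx3, Etv1 and Nppb were among the 5 not called. The trabecular genes thus stood on both sides.

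Genes of working ventricular muscle were higher on the right almost throughout. Of the 10 ventricular cardiomyocyte genes 9 were higher on the right, none on the left, and the median was -0.52. In bulk RNA fewer cells of a type and less RNA per cell cannot be told apart, here and for every cell type list that follows. Myl2 stood at 3597, 3408, 3672 and 3865 CPM in LV cKO and 5110, 4926, 5184 and 5218 CPM in RV cKO (-0.49, SE 0.042, adjusted p = 7.5e-06). Irx4, a ventricle-specific homeobox factor, stood at 61.5, 61.0, 61.3 and 60.0 CPM against 89.4, 96.7, 87.4 and 83.5 CPM (-0.55, SE 0.043, adjusted p = 3.91e-06). In the controls, 3 of the 10 genes were higher on the right, 6 without RV control 2. For Irx4 the control difference was -0.02 and the difference between genotypes -0.53 (adjusted p = 0.0133). For Myl2 the control difference was -0.10 (-0.19 and called without RV control 2) and the difference between genotypes was not called (-0.40, adjusted p = 0.0918), although it was without RV control 2 (adjusted p = 0.0222).

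The sarcomere list gave the same direction: 32 of 36 tested genes were higher on the right, none on the left, with a median of -0.36. Beside the actins and Tnni2 these included Actn2, the Z-disc alpha-actinin (-0.55, SE 0.034, adjusted p = 9.05e-07), Tnnc1, cardiac troponin C (-0.63, SE 0.040, adjusted p = 1.2e-06), Myh7 (-0.43) and Ttn (-0.34). Myh6, Mybphl, Tnnt1 and Tnnt3 were not called. The summed level of the list was 59430 to 65270 TPM in LV cKO and 76090 to 83360 TPM in RV cKO. In the controls 17 of its genes were higher on the right and none on the left. Without RV control 2, 25 were higher on the right there and none on the left. In the test of the difference between genotypes 1 gene was called.

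**Figure D3:**
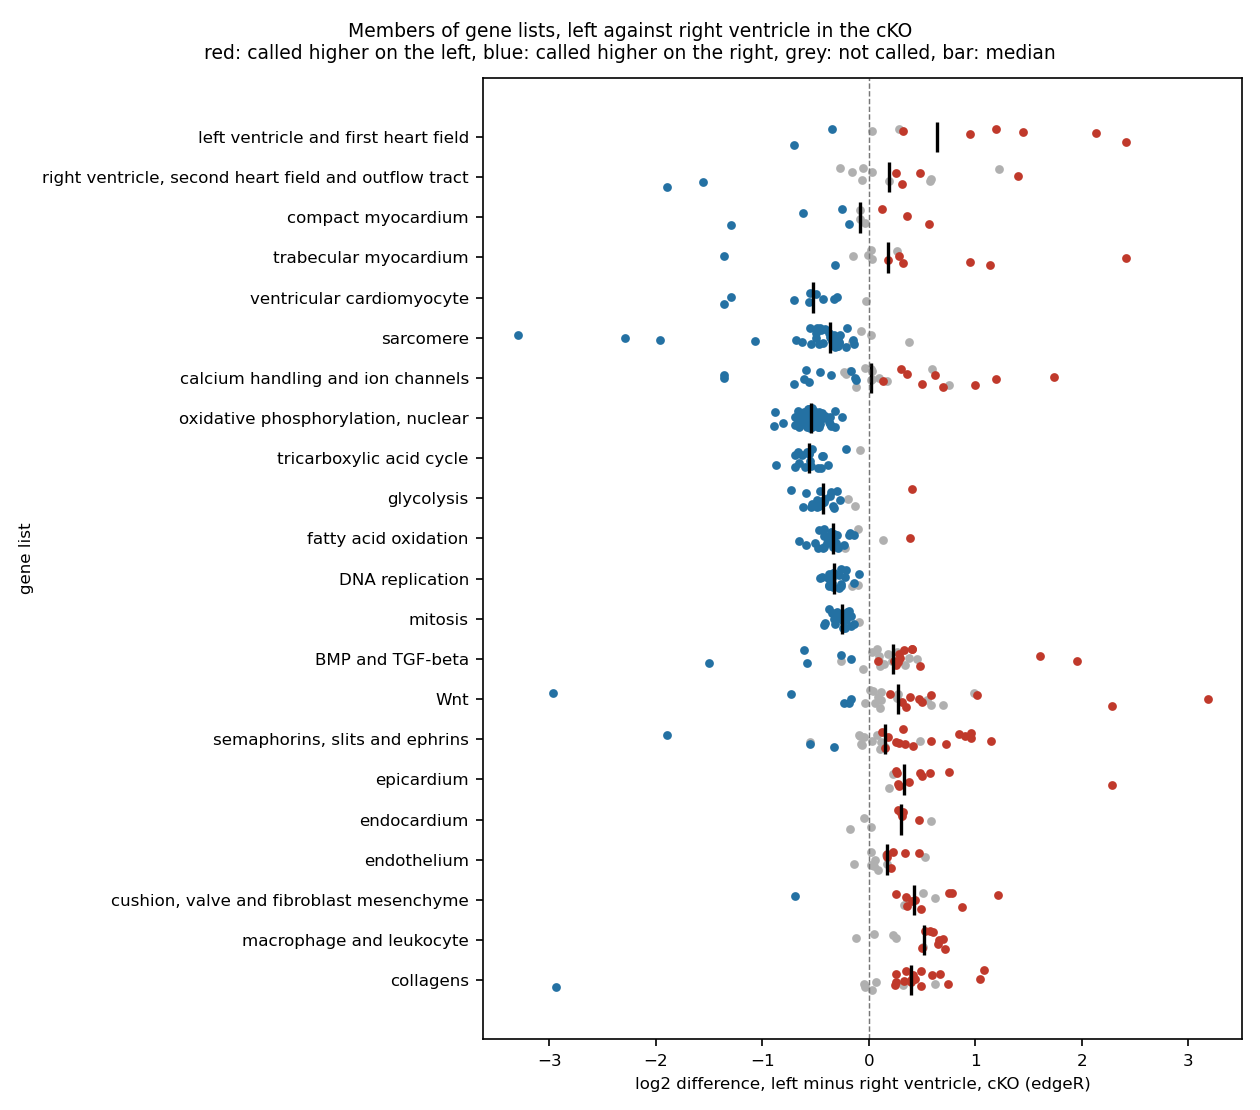
Log2 difference between left and right ventricle in the cKO (horizontal axis) for the tested members of 22 gene lists, 1 point a gene, red for called higher on the left, blue for called higher on the right, grey for not called, with a bar at the list's median. All 50 oxidative phosphorylation genes and 32 of 36 sarcomere genes are blue, whereas the collagen, epicardium and macrophage lists lie mostly to the right of zero, which is higher on the left.

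Most genes of the mitochondrial and energy lists were higher on the right. All 50 nuclear genes of oxidative phosphorylation were called higher on the right, with a median of -0.54. Cyc1, cytochrome c1 of complex III, stood at 204, 217, 206 and 212 CPM on the left and 353, 390, 401 and 399.8 CPM on the right (-0.89, SE 0.045, adjusted p = 3.48e-07). Sdha, the flavoprotein of complex II, stood at 357, 365, 362 and 365 CPM against 545, 572, 583 and 593 CPM (-0.67, SE 0.035, adjusted p = 3.64e-07). Ndufs3, Uqcrc2 and Sdhb, subunits of complexes I, III and II, differed by -0.56, -0.66 and -0.70. In the controls 26 of the 50 were higher on the right, and 47 without RV control 2. In the test of the difference between genotypes 5 of the 50 were called, all lower.

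The tricarboxylic acid cycle list had 19 of 20 genes higher on the right and a median of -0.56. Mdh2, mitochondrial malate dehydrogenase, stood at 390, 398, 384 and 379 CPM in LV cKO and at 604, 620, 636 and 634 CPM in RV cKO (-0.69, SE 0.032, adjusted p = 1.97e-07). Got1, the cytosolic aspartate aminotransferase, differed by -0.87 and Cs, citrate synthase, by -0.66. Of 29 fatty acid oxidation genes tested 24 were higher on the right and 1 higher on the left, Slc27a1. Cpt1b, the muscle form of the carnitine transferase that admits fatty acids to mitochondria, stood at 175, 171, 180 and 175 CPM against 222, 235, 234 and 242 CPM (-0.42, SE 0.035, adjusted p = 6.16e-06). In the controls 3 of these 29 genes were higher on the right, 14 without RV control 2, and 6 were called lower in the test of the difference between genotypes, among them Cpt1b (-0.35, adjusted p = 0.0425) and Acads (-0.37, adjusted p = 0.0182).

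Ppargc1a, the coactivator that drives mitochondrial biogenesis, stood at 55.3, 60.2, 62.4 and 59.6 CPM in LV cKO and at 89.5, 96.9, 93.7 and 93.7 CPM in RV cKO (-0.66, SE 0.043, adjusted p = 1.23e-06). In the controls its difference was -0.07 (adjusted p = 0.504), and the difference between genotypes was -0.58 (adjusted p = 0.00176). Its relative Ppargc1b was higher on the right in both genotypes, with differences of -0.91 and -0.60. Esrrg, an oestrogen-related nuclear receptor, went the other way and was higher on the left by 0.60 (SE 0.050, adjusted p = 6.43e-06). Perm1, a muscle regulator that acts downstream of these factors, differed by -1.57 and myoglobin, Mb, by -0.60, and both lay on the creatine and oxygen handling list, of which 9 of 11 tested genes were higher on the right.

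Glycolysis followed the same direction, with 21 of 24 genes higher on the right, 1 higher on the left, and a median of -0.43. Eno3, muscle enolase, stood at 174, 167, 158 and 162 CPM against 254, 286, 275 and 277 CPM (-0.73, SE 0.044, adjusted p = 7.89e-07). The glucose transporter gene Slc2a1 differed by -0.62 in the cKO and by -0.93 in the controls. Reads of the mitochondrial genome made up 5.34% to 5.91% of each LV cKO library and 5.65% to 6.46% of each RV cKO library, which overlapped (difference -0.479 percentage points, two-sided exact permutation p = 0.114, smallest possible 0.0286). Without RV cKO 4 they did not overlap, and the difference was -0.652 points (two-sided exact permutation p = 0.0286).

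Genes of dividing cells were modestly higher on the right. In the DNA replication list 21 of 23 genes were higher on the right with a median of -0.33, and in the mitosis list 24 of 25 with a median of -0.25. None of either list was called higher on the left. Uhrf1, which recruits maintenance methylation to replicating DNA, stood at 107, 109.8, 102 and 106 CPM on the left and 142, 149.8, 140.4 and 149.5 CPM on the right (-0.46, SE 0.036, adjusted p = 4.21e-06). Ccna2, cyclin A2, stood at 183, 193, 193 and 188 CPM against 243, 242, 247 and 245 CPM (-0.37, SE 0.029, adjusted p = 4.2e-06). Of cell cycle inhibitors, Cdkn1a, the p53 target known as p21, was also higher on the right (-0.38, adjusted p = 0.000106). In the controls 11 of 23 replication genes and 4 of 25 mitosis genes were higher on the right, 19 and 17 without RV control 2, and 1 mitosis gene, Bub1b, was called in the test of the difference between genotypes (-0.29, adjusted p = 0.0359). With library totals 19 mitosis genes were still called higher on the right, where 2058 of all 15694 genes were. With TPM 6 were, where 726 of all 14134 genes were.

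Ligands, receptors and antagonists of the growth factor pathways were split between the chambers. In the BMP and TGF-beta list 13 of 32 tested genes were higher on the left and 5 on the right, with a median of 0.23. Bmp7 stood at 160.4, 171, 169.9 and 175 CPM on the left and 275, 261, 235 and 235 CPM on the right (-0.58, SE 0.052, adjusted p = 1.05e-05), and the ligand Bmp5 differed by -0.60. On the left stood the type I receptor gene Tgfbr1 (0.41, SE 0.036, adjusted p = 8.55e-06), beside the antagonist Fst and the BMP target Id4. Fst was 9.64, 10.3, 11.3 and 9.97 CPM in LV cKO against 2.93, 2.16, 2.88 and 2.61 CPM in RV cKO.

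In the Wnt list 10 of 29 tested genes were higher on the left and 5 on the right. Among secreted inhibitors, Wif1 was the most right-sided, with 1.55, 1.24, 1.42 and 1.26 CPM on the left and 12.7, 14.3, 7.65 and 8.04 CPM on the right (-2.96, SE 0.23, adjusted p = 4.17e-06). Dkk2 was the most left-sided, with 3.62, 3.60, 3.81 and 5.2 CPM against 0.528, 0.797, 0.0589 and 0.366 CPM (3.18, SE 0.37, adjusted p = 6.66e-05), and Sfrp5 differed by 2.28 (adjusted p = 9.75e-05). These 3 inhibitors of the pathway thus stood at opposite ends of the left-right range. The ligand Wnt5a was higher on the left by 0.58 (SE 0.055, adjusted p = 1.41e-05).

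The guidance cue list had 15 of 30 tested genes higher on the left and 3 higher on the right. Ntn1, netrin 1, stood at 342, 375, 366 and 383 CPM on the left and 236, 141, 137 and 149 CPM on the right, where RV cKO 1 was the highest (1.14, SE 0.15, adjusted p = 0.00013). The plexin receptor Plxna2 (0.90, SE 0.063, adjusted p = 1.76e-06) and Slit3, a ligand of Robo receptors (0.96, SE 0.077, adjusted p = 4.51e-06), were also left-sided. Slit3 differed by 0.40 in the controls, and the difference between genotypes was called (0.56, adjusted p = 0.0138). Efnb2, ephrin B2, stood at 95.5, 100.4, 111 and 104 CPM against 63.1, 58.2, 60.6 and 65.8 CPM (0.73, SE 0.053, adjusted p = 2.49e-06), with 0.21 in the controls and a difference between genotypes of 0.52 (adjusted p = 0.0013).

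Of 17 Notch genes tested 5 were higher on the left and 3 on the right, where 16.3% and 20.1% of all genes were called. Jag1, a Notch ligand, stood at 19.3, 19.5, 19.7 and 19.5 CPM in LV cKO and 26.4, 30.6, 25.4 and 25.9 CPM in RV cKO (-0.48, SE 0.061, adjusted p = 0.000134), and the feedback inhibitor Nrarp differed by -0.60 (adjusted p = 0.000886). Jag1 did not differ in the controls (-0.02, adjusted p = 0.896), with a difference between genotypes of -0.45 (adjusted p = 0.0295). In the FGF, IGF and neuregulin list 6 of 31 were higher on the left and 9 on the right, again beside 16.3% and 20.1% of all genes. Nrg2, a neuregulin ligand of ERBB receptors, was left-sided (1.47, SE 0.14, adjusted p = 1.95e-05), and Hbegf, another ERBB ligand, right-sided (-0.55, adjusted p = 0.00116). Fgf10 was low, at 0.648 to 1.61 CPM in the cKO libraries and 0.236 to 1.34 CPM in the controls, and was not called in the cKO (0.57, adjusted p = 0.0884). In the controls it was higher on the right (-1.18, adjusted p = 0.0289), and the difference between genotypes was 1.75 (adjusted p = 0.0375, and 0.0525 without RV control 2).

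In the retinoic acid list 5 of 14 tested genes were higher on the left and 1 on the right. Of all genes 16.3% and 20.1% were called on these sides. Aldh1a2, the enzyme that makes retinoic acid and also an epicardial marker, was higher on the left by 0.50 (adjusted p = 0.000703). Of 22 hypoxia and stress genes 2 were higher on the left, among them Adm, adrenomedullin (0.87, adjusted p = 0.000321), and 6 higher on the right, among them Egln3, an oxygen-sensing hydroxylase (-0.79, adjusted p = 9.51e-05), and the stress cytokine Gdf15 (-1.50, adjusted p = 0.0048).

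Ion channel and calcium genes did not share a side: 9 of 33 tested were higher on the left and 11 on the right, with a median of 0.02. Atp2a2, the sarcoplasmic calcium pump, stood at 1402, 1417, 1480 and 1526 CPM in LV cKO and at 2083, 2204, 2113 and 2158 CPM in RV cKO (-0.56, SE 0.037, adjusted p = 1.35e-06). Casq1, the skeletal form of the calcium buffer calsequestrin, stood at 125.5, 97.7, 84.1 and 99.6 CPM against 252, 251, 272 and 263 CPM (-1.36, SE 0.095, adjusted p = 1.76e-06), and differed by -1.59 in the controls. On the left were Hcn4 and Kcnj8, the latter with 9.53, 11.1, 9.96 and 10.2 CPM against 3.03, 3.47, 2.35 and 3.29 CPM (1.74, SE 0.12, adjusted p = 1.61e-06). Kcnj8 is also a pericyte marker, and differed by 0.26 in the controls (adjusted p = 0.348) with a difference between genotypes of 1.49 (adjusted p = 0.00176). Of 16 conduction system genes tested 5 were higher on the left and 3 on the right, where 16.3% and 20.1% of all genes were called. Gjc1, connexin 45, was among those higher on the right (-0.25, adjusted p = 0.000396). Of 15 atrial genes tested 6 were higher on the left, with Angpt1 (0.69, SE 0.068, adjusted p = 2.04e-05) beside Nppa and Tbx5. Myl7 (-0.45) and Myl4 (-0.29), which encode atrial light chains, were among 3 higher on the right.

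Among the lists of other cell types, epicardium and mesenchyme had most of their members higher on the left. Of 12 epicardial genes tested 10 were higher on the left and none on the right, with a median of 0.33. Tbx18, a T-box factor of the epicardium, stood at 53.7, 56.8, 59.6 and 62.1 CPM on the left and 41.2, 35.6, 39.5 and 39.4 CPM on the right (0.57, SE 0.057, adjusted p = 2.12e-05). Tcf21, a factor of epicardium-derived fibroblasts, stood at 26.9, 29.3, 29.6 and 35.5 CPM against 14.3, 18.6, 18 and 21.1 CPM (0.75, SE 0.12, adjusted p = 0.000455). The summed epicardial level was 261 to 286 TPM in LV cKO and 159.8 to 200.1 TPM in RV cKO. In the controls 2 of the 12 genes were higher on the left, and 3 without RV control 2.

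Of 16 cushion, valve and fibroblast genes 10 were higher on the left and 1, Vcan, higher on the right, with a median of 0.42. Pdgfra, a fibroblast receptor, stood at 86.7, 88.2, 77.2 and 105 CPM on the left and 46.9, 58.9, 41.4 and 59.8 CPM on the right (0.78, SE 0.12, adjusted p = 0.000441). Meox1, a mesenchymal homeobox factor, stood at 14.1, 13.3, 12.0 and 16.7 CPM against 4.66, 7.4, 4.59 and 7.47 CPM (1.22, adjusted p = 0.000256). The summed level of the list was 1162 to 1384 TPM in LV cKO and 841 to 1061 TPM in RV cKO. Vcan, the proteoglycan versican, which is found in cardiac jelly and cushions, stood at 311, 325, 321 and 341 CPM against 519, 567, 499 and 506 CPM (-0.69, SE 0.045, adjusted p = 1.23e-06). In the fit of all 16 libraries, where 14.5% of genes were called higher on the left, 5 of the 10 left-sided genes were called, and Meox1 was not (adjusted p = 0.204). In that fit without RV control 2, where 16.7% of genes were called higher on the left, 10 of the 16 were. Meox1 was among them (adjusted p = 0.000435). The controls had 0 of the 16 higher on the left, and 10 without RV control 2, which itself held the most Meox1.

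Collagens showed the same side, with 17 of 24 tested higher on the left and Col2a1 alone on the right. Col5a2, a fibrillar collagen, stood at 445, 426, 450.0 and 424 CPM in LV cKO and 315, 332, 331 and 344 CPM in RV cKO (0.40, SE 0.037, adjusted p = 1.45e-05). Col26a1 differed by 1.08 and Col16a1 by 0.59. Of 9 endocardial genes tested 5 were higher on the left and none on the right: Npr3, the natriuretic peptide clearance receptor, differed by 0.30 (adjusted p = 0.00069) and Cdh11, a cadherin, by 0.47 (adjusted p = 2.87e-06). The difference in Cdh11 was 0.15 in the controls (0.18 and called without RV control 2) and differed between genotypes by 0.33 (adjusted p = 0.0138). Of 15 endothelial genes 6 were higher on the left and none on the right, by 0.34 for the receptor Tek and 0.17 for the adhesion molecule Pecam1. Summed levels did not overlap for the collagens (1681 to 1871 TPM against 1239 to 1422 TPM), the endocardial list (384 to 437 TPM against 316 to 348 TPM) or the endothelial list (908 to 1030 TPM against 779.6 to 836 TPM).

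Of 13 macrophage genes 8 were higher on the left and none on the right, with a median of 0.52. Csf1r, the receptor of the macrophage growth factor, stood at 59.3, 56.5, 51.9 and 49.1 CPM on the left and 33.5, 30.3, 28.7 and 40.6 CPM on the right (0.70, SE 0.098, adjusted p = 0.000247). The summed level of the macrophage list overlapped, with 210 to 238 TPM on the left and 121 to 242 TPM on the right. Of 11 erythroid genes tested 1 was higher on the left and none on the right. Haemoglobin genes took 2.12%, 1.30%, 3.25% and 2.46% of reads in LV cKO 1 to 4 and 1.32%, 1.13%, 2.24% and 1.53% in RV cKO 1 to 4, which overlapped (difference 0.726 points, two-sided exact permutation p = 0.229). This test takes the libraries as unpaired, and the share was higher on the left at each of the 4 numbers. With the number as a block, 10 of the 11 erythroid genes were called higher on the left, as were 2794 of all 15694 genes. Of smooth muscle and pericyte genes 5 of 11 were higher on the left and 5 higher on the right, among the latter Acta2 and Cspg4 (-0.51). Of 12 neural crest and neuron genes 7 could be tested, and Foxd3 had 0 reads. Ednrb was higher on the left (0.21, adjusted p = 0.0217) and Elavl3 on the right (-1.72, adjusted p = 0.000676). Neither was called with length-scaled counts (adjusted p = 0.0941 and 0.564). The summed level was 129.8 to 139.7 TPM in LV cKO and 108.5 to 114.1 TPM in RV cKO. Of liver and lung genes only Ttr could be tested (0.95, adjusted p = 0.0612, and 0.0439 in the fit of all 16 ventricles), with Sftpc at 0. The part that these other cell types play in the differences of muscle genes was not tested.

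Most genes called in the cKO had the same sign in the controls, and the controls gave fewer calls. The 2 fits share no library. Of 15465 genes tested in both, 1899 were called in the same direction in both, which is 33.6% of the 5654 called in the cKO and 76.0% of the 2499 called in the controls. Only 12 were called in opposite directions. Of the genes called in the cKO, 91.0% had the same sign in the controls, and across genes, which are not independent replicates, the log2 differences correlated at r = 0.657. Without RV control 2 the controls gave 4173 calls of 16033 genes (26.0%, with 11.9% left and 14.2% right), and 3022 genes were called in the same direction in both. When both genotypes shared 1 model and so 1 estimate of the spread, the cKO had 5398 calls (32.8%, of which 14.5% left and 18.3% right as shares of all genes) and the controls 3462 (9.02% left and 12% right, 21%), or 6005 (36.1%) and 4482 (26.9%) without RV control 2. A count of calls depends on the spread within each genotype, and the controls had a biological coefficient of variation of 0.102, or 0.064 without RV control 2.

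**Figure D4:**
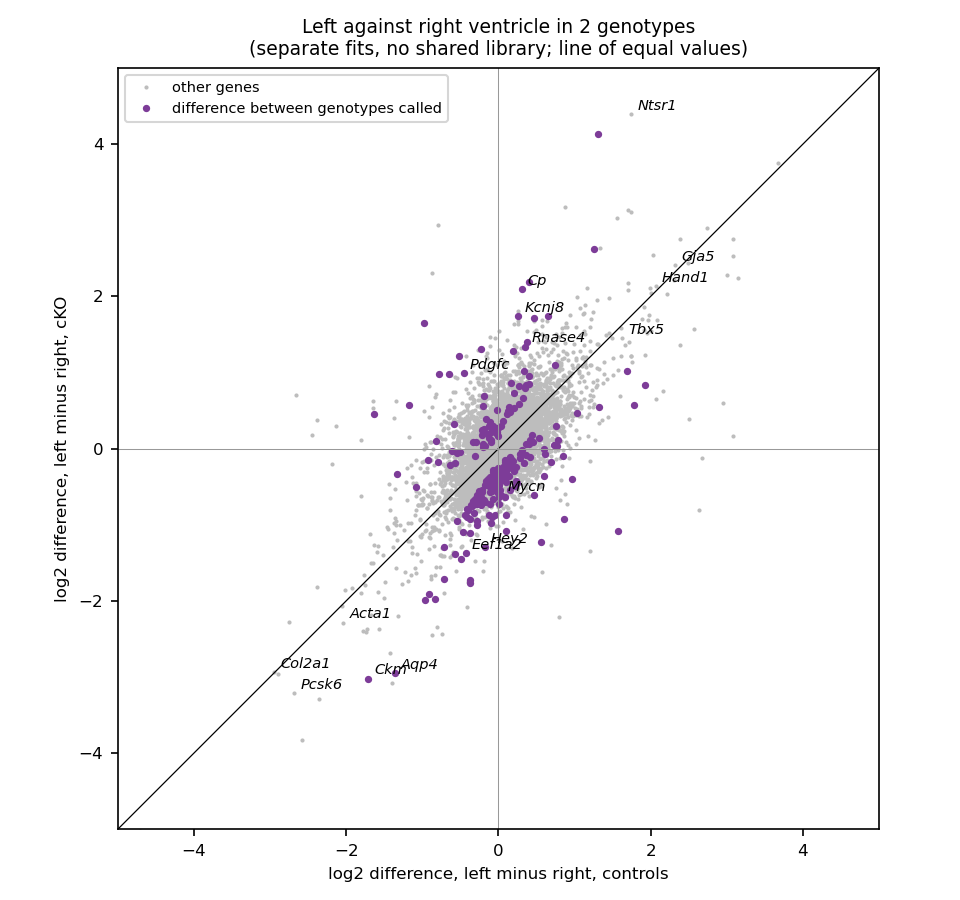
Log2 difference between left and right ventricle in the cKO (vertical axis) against that in the controls (horizontal axis) for 15465 genes, with the line of equal values and 3 genes outside the axes. Purple points are the 235 plotted genes whose difference between genotypes was called, and Hand1, Gja5 and Col2a1 lie near the line while Hey2, Cp and Kcnj8 lie off it.

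The difference between genotypes itself was called for 236 of 16448 genes (1.43%), 76 with a more positive and 160 with a more negative left-right difference in the cKO. Without RV control 2 it was called for 358 (2.15%). On the negative side Hey2 had the smallest p. Ckm, right-sided in both genotypes, was more so in the cKO (-3.02 against -1.72, difference -1.30, adjusted p = 0.000893), as was Aqp4 (-2.95 against -1.37, difference -1.58, adjusted p = 0.000844). Eef1a2, the muscle and neuron form of the translation elongation factor, stood at 85.3, 72.7, 73.6 and 84.3 CPM in LV cKO and at 189, 230.1, 197 and 201 CPM in RV cKO (-1.38 against -0.43, difference -0.94, adjusted p = 0.0003). The glutamine transporter gene Slc1a5 differed by -0.90 in the cKO and -0.09 in the controls (difference -0.81, adjusted p = 0.000209).

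On the same side, Stbd1, Strip2 and Gsn had differences between genotypes of -0.73, -0.49 and -0.46. Gsn, the actin-severing protein gelsolin, stood at 161, 165.5, 161 and 163 CPM on the left and 223, 244, 233 and 237 CPM on the right in the cKO (-0.53), with -0.06 in the controls (adjusted p = 0.416). Stbd1, a glycogen-binding protein, differed by -0.72 in the cKO and by 0.01 in the controls. The difference between genotypes was called for each. Without RV control 2 Gsn was also called in the controls, on the same side (-0.11, adjusted p = 0.0332).

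On the positive side Rnase4, a secreted ribonuclease, stood at 32.7, 35.9, 34.4 and 34.8 CPM in LV cKO and at 14.4, 14.0, 12.0 and 13.8 CPM in RV cKO (1.34 against 0.35 in the controls, difference 0.99, adjusted p = 0.0003). Cp had a difference between genotypes of 1.80 (adjusted p = 0.00176) and Cttnbp2 of 1.10 (adjusted p = 0.00398). Pdgfc, a platelet-derived growth factor, stood at 20.1, 19.8, 22.8 and 21.1 CPM on the left and 12.8, 10.5, 9.48 and 9.04 CPM on the right in the cKO (0.99, SE 0.10, adjusted p = 2.52e-05), and was not called in the controls (-0.46, adjusted p = 0.113), with a difference of 1.46 (adjusted p = 0.00276). The sorting receptor gene Sort1 and the atypical cadherin gene Fat3 were higher on the right in the controls, with differences of -0.30 and -0.92, and were not called in the cKO (0.08 and -0.15). Sort1 lay near the threshold in the cKO (adjusted p = 0.0577) and was called higher on the left under 6 of the alternatives, with library totals at 0.164 (adjusted p = 0.00348). Their differences between genotypes were 0.39 and 0.78.

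**Figure D5:**
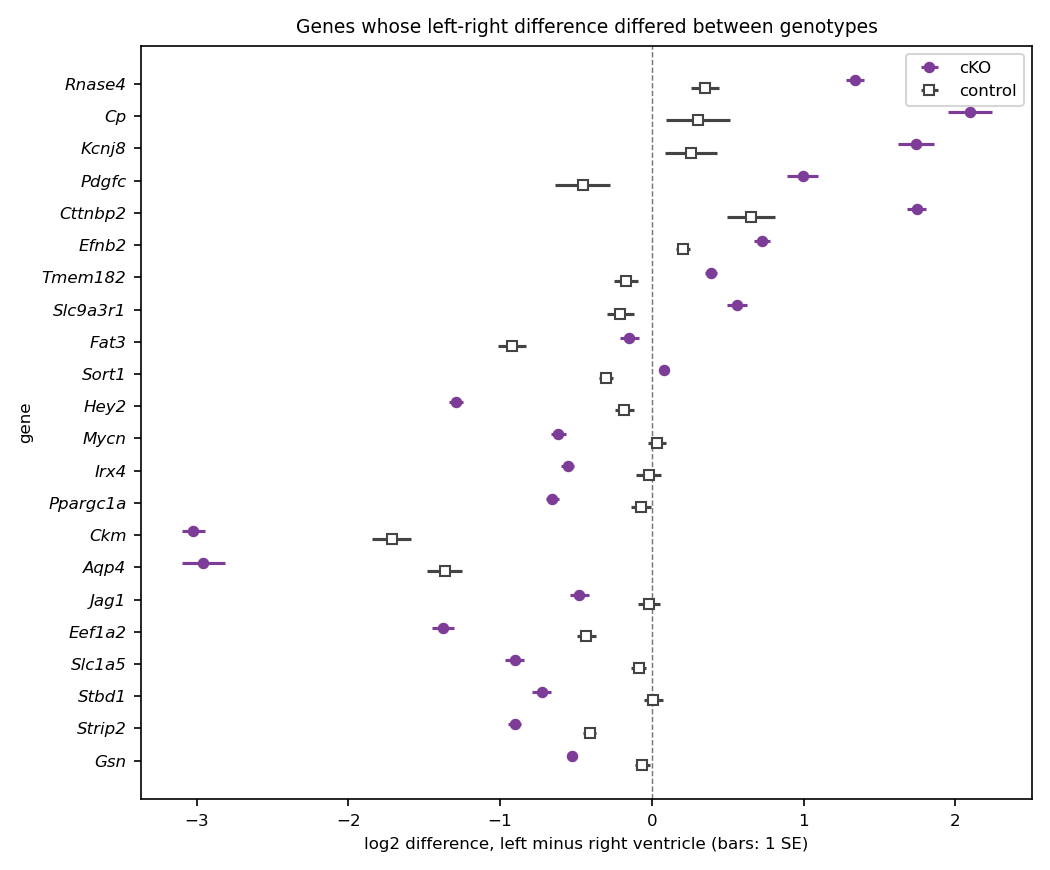
Log2 difference between left and right ventricle (horizontal axis, bars 1 SE) in the cKO (filled circles) and the controls (open squares) for 22 genes called in the test of the difference between genotypes. Hey2 moves from -0.18 in the controls to -1.29 in the cKO and Mycn from 0.04 to -0.62, whereas Rnase4 moves from 0.35 to 1.34.

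Genes called in opposite directions in the 2 genotypes had small differences. Emp2, an epithelial membrane protein, was higher on the right in the cKO (-0.26, adjusted p = 0.00179) and higher on the left in the controls (0.17, adjusted p = 0.0153). Igfbp2, a binding protein of insulin-like growth factors, went from 0.60 on the left in the controls (adjusted p = 0.00214) to -0.36 in the cKO (adjusted p = 0.0111), a difference between genotypes of -0.95 (adjusted p = 0.00195). Spon1 and Gsto1 changed side in the same way, by -0.16 and -0.30 in the cKO against 0.18 and 0.20 in the controls. Msra and Ubash3b changed side the other way, by 0.18 and 0.24 in the cKO against -0.21 and -0.21. The cKO calls of these genes depended on the processing, and none was called against a fold change of 1.2. Spon1 was not called with library totals (-0.076, adjusted p = 0.131). With counts scaled to transcript length Gsto1, Igfbp2 and Ubash3b were not called (adjusted p = 0.0588, 0.0672 and 0.18). By limma on log2 TPM, Emp2, Igfbp2, Spon1, Gsto1 and Ubash3b were not called. The cKO libraries overlapped between chambers for Igfbp2.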

How the data were processed

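RNA of dissected ventricles and of whole hearts was sequenced in 22 libraries. The 8 cKO and the 8 control ventricles of E13.5 were compared, and the whole hearts were used only beside the levels of the defining markers. Per the submitters' processing notes, the authors used Salmon 1.2.1 and DESeq2 1.22.2 with GRCm38.p6 and mm10. The deposited files give, per transcript, Salmon's estimated counts and TPM, made by the authors. The role of their DESeq2 run is not given in the sources used here. Estimated counts were summed to genes with the GENCODE M21 annotation, matched on transcript IDs without version, and rounded. Of 140658 transcripts 521 had no match and were left out, at most 0.204% of reads in a library.

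Left and right were compared with edgeR 4.0.16 (R 4.3.3), TMM scaling, its default filter on low counts, the quasi-likelihood F test and Benjamini-Hochberg adjustment, at a threshold of 0.05. The cKO was fitted on its 8 libraries, the controls on theirs, and the difference between genotypes as an interaction in all 16, each also without RV control 2 where the controls enter. Printed CPM are TMM-scaled in the 16-library model. Shares of reads were compared with exact permutation tests. Tests on simulated data called 88% and 67% of genes changed by 1 and 0.5 (log2) in the cKO design and 0.0718% of unchanged genes. For the difference between genotypes these shares were 70%, 45% and 0.0436%. In the cKO simulation 100 of 15530 genes were changed by each amount, whereas 36.4% of genes were called in the data. The simulated shares may therefore not hold for the data. Named genes were the 20 largest called protein-coding genes without overlap in each direction, and the left and right ventricle lists in full. Of each other list they were up to 5 members with the smallest p, called or not. The 10 genes with the smallest p in each direction for the difference between genotypes, and genes called on opposite sides, were added. Other genes were named after their values were seen. Members and lists were chosen with earlier results of these data known. Promoter sequences came from a RefSeq table. Some genes that the rule names are not reported here.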

Additional observations from a re-analysis of the deposited data

Results flagged for a closer look

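Among the genes named above, 328 groups of 4 cKO libraries were examined for a library far from the other 3, and 16 (4.88%) had one, where chance gives about 1 in 20. The value is the gap of that library to its nearest neighbour as a share of the group's range. RV cKO 1 was the library set apart for Gja5 (0.902), Ntn1 (0.877) and Slco5a1 (0.886), in which it was highest, and for Perm1 (0.89), in which it was lowest. RV cKO 4 was highest for Rxfp1 (0.839), for which LV cKO 3 was lowest on the other side (0.85). LV cKO 4 was highest for Dkk2 (0.869), Fgfr2 (0.86) and Snai2 (0.92), and lowest for Nrarp (0.85) and Tek (0.982). LV cKO 1 was highest for Dok7 (0.889) and Stbd1 (0.892) and lowest for Hbegf (0.834). LV cKO 2 was highest for Cs (0.859) and Igdcc3 (0.969).

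For 40 named genes the left-right difference itself differed between the cKO and the controls, by edgeR's interaction test with RV control 2 included. Other genes were called only without RV control 2, for example Cyc1, Got1, Esrrg and Kcne1 (adjusted p = 0.0196, 0.0227, 0.0361 and 0.039). Prdm16 and Fgf10 were called only with it. The values that follow are cKO minus control, on the log2 scale. Transcription regulators with more negative values in the cKO were Hey2 (-1.10), Mycn (-0.65), Irx4 (-0.53), Ppargc1a (-0.58) and Prdm16 itself (-0.44). Metabolic genes on this side were Ckm (-1.30), Mb (-1.07), Acss1 (-1.0), Dio2 (-1.14), Stbd1 (-0.73), Acads (-0.37), Cpt1b (-0.35) and Mdh2 (-0.35). Genes of membrane transport and receptors were Aqp4 (-1.58) and Slc1a5 (-0.81), with the Notch ligand Jag1 at -0.45. The cell cycle genes Ccnd2 (-0.31) and Bub1b (-0.29) were also negative. The other genes with negative values were Ky (-1.36), Dok7 (-1.0), Igfbp2 (-0.95), Eef1a2 (-0.94), Gsto1 (-0.50), Strip2 (-0.49), Gsn (-0.46), Emp2 (-0.43) and Spon1 (-0.34).

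Secreted ligands and matrix or guidance genes with more positive values in the cKO were Fgf10 (1.75), Pdgfc (1.46), Slit3 (0.56) and Efnb2 (0.52). Surface proteins were Kcnj8 (1.49), Fat3 (0.78), Sort1 (0.39) and Cdh11 (0.33). The others were Cp (1.80), Cttnbp2 (1.10), Rnase4 (0.99), Ubash3b (0.46) and Msra (0.40).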

How the results depend on the processing

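Of 207 genes recomputed under 22 settings, 137 kept their direction and their side of the threshold in all of them. The sign of the estimate turned for 3, and no turned value was called. For Ccnd2 it was 0.006 with length-scaled counts (adjusted p = 0.983) and 0.149 with limma on log2 TPM (adjusted p = 0.477). On TPM it was 0.027 for Cdkn2d (adjusted p = 0.84) and 0.039 for Fzd2 (adjusted p = 0.714). The cause was not tested. The 5714 calls in the cKO became 2983 with length-scaled counts, 2989 on TPM (2263 higher on the left), 3665 at an adjusted p under 0.01 and 1387 against a fold change of 1.2. Leaving out 1 library gave 4973 to 5623. The 2527 control calls became 4060 with limma voom, 1077 with length-scaled counts, 941 on TPM, 932 at an adjusted p under 0.01 and 383 against a fold change of 1.2. With library totals they split into 1697 left and 937 right. Leaving out 1 control gave 1499 (without LV control 2) to 4173 (without RV control 2), with 1614 and 1550 without LV control 3 and 4, and 1563 and 1673 without RV control 3 and 4. The 236 differences between genotypes became 466 with DESeq2, 414 with limma voom, 64 with length-scaled counts and 38 on TPM (26 more positive, 12 more negative). Leaving out 1 library gave 125 (without LV cKO 3) to 358 (without RV control 2). The count was 135 and 157 without LV cKO 2 and 4, 138 and 136 without RV cKO 2 and 4, and 146, 151 and 137 without LV control 2, 3 and 4. The haemoglobin difference was 0.402 to 1.05 points and the mitochondrial one -0.652 to -0.361 points when 1 library was left out. With the replicate number as a block the calls were 6141 in the cKO, 2228 in the controls and 196 between genotypes. The numbers share no stated source. Same-numbered cKO libraries deviated together at r = 0.23, 0.03, 0.23 and 0.21 over 11880 genes, for numbers 1 to 4. The highest r with another number was 0.06, 0.11, 0.02 and 0.02. Numbers 1, 3 and 4 thus went most with their own number, and whether these are pairs is not known. The main fits leave the numbers out. Under the block 2794 of 15694 genes were called higher on the left, and the calls among 11 erythroid genes went from 1 to 10. All 10 were higher on the left, and the haemoglobin share was higher on the left at each of the 4 numbers.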
